A study of Mus musculus with 66 samples.

Results

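The H3K9me3 landscape of water-treated prefrontal cortex (PFC) was described in the 10 H3K9me3 chromatin immunoprecipitation sequencing (ChIP-seq) libraries of mice that received water, out of 66 samples in the series. A region was a stretch of chromosomes 1 to 19 covered by H3K9me3 islands of at least 5 of the 10 pools, and a core region was one where each of the 10 pools had an island. Of 34675 regions, 4300 were core regions (12.4%), and 4234 of these had at least 10 input reads in every pool and could be ranked. Only islands with a false discovery rate (FDR) of at most 0.01 were used. Ranking used ChIP reads against input reads of the same islands, as log2 of the ratio (with 1 read added to each count) minus the median of the same value over all islands used in that library. This value, the centred log2 ratio, is 0 for an island of median enrichment in its own library, and it is given as the mean ± SD over 10 pools. Because the members were chosen by these values, the ranking is a description and carries no test.

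There were 5 male and 5 female pools of adolescent mice of the inbred strain DBA/2J, which differs in sequence from the C57BL/6J reference genome. Each pool joined the PFC of 3 mice of 1 sex. Between postnatal days (PND) 29 and 42 the mice were intermittently gavaged with water, on the schedule by which other mice received 4 g/kg ethanol, and the PFC was collected 24 h after dosing ended. All of them, controls included, had thus been handled and gavaged repeatedly, and bulk cortex mixes neurons and glia, so that a mark in few cells and a weak mark in many cells cannot be told apart. The pools were separate sets of mice, so the spread between them includes both animals and preparations.

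H3K9me3 is the tri-methylation of lysine 9 of histone H3, the mark of constitutive heterochromatin. It is written by SETDB1, SUV39H1 and SUV39H2, read by HP1 proteins, and guided to transposons by KRAB zinc-finger proteins, which recruit TRIM28 and SETDB1. It is also known to cover gene families arranged in tandem arrays that most tissues keep silent, among them zinc-finger genes, whose tandem finger exons carry it, and the odorant and pheromone receptor genes, which only sensory neurons of the nose use. H3K36me3, the mark precipitated from the same pools, is laid down over the bodies of transcribed genes by SETD2.

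Sequences of 2 kinds are shown here first. The zinc-finger exons are shown because the finger repeat was more frequent in the 423 core regions of highest value than in all core regions, although the 20 leading regions touched no gene body. Each line is a stretch of coding exon under a core region, on the sense strand of GRCm38 (RefSeq genome, GENCODE vM21 exons). Capitals mark the 14 letters CANACNGGNGANAA. This was the commonest run of 5 codons, with the third base left free, in the longest coding exons of 385 autosomal Zfp genes (1785 occurrences), and it covers the last histidine of a C2H2 finger and the start of the linker to the next finger. Zfp988 lies at chr4:147331824-147332075 and Zfp987 at chr4:146124713-146124964, while Zfp97 lies at chr17:17145001-17145252 and Zfp960 at chr17:17087649-17087900, all on the plus strand.
Zfp988: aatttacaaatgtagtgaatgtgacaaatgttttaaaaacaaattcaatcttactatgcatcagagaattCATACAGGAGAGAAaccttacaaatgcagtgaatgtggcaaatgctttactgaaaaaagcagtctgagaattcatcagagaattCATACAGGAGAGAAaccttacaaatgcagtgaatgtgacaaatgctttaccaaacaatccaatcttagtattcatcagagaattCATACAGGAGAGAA
Zfp987: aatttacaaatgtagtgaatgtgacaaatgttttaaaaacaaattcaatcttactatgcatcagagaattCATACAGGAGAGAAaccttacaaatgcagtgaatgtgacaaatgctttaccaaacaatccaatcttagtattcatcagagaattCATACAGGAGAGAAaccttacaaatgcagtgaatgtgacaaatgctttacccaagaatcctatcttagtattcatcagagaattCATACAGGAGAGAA
Zfp97: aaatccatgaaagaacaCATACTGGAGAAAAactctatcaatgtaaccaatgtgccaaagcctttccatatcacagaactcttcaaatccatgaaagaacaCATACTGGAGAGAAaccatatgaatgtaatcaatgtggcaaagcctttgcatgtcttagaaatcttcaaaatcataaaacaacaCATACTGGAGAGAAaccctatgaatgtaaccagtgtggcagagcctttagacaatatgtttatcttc
Zfp960: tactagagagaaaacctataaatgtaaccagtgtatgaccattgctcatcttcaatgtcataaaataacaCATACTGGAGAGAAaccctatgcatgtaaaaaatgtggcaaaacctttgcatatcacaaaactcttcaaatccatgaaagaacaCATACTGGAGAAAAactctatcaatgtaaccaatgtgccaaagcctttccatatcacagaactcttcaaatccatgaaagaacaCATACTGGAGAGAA

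Each stretch holds 3 copies of this linker motif, and the parts of coding exons under these core regions held 12, 12, 8 and 10 of them, in the order printed. The core regions over these stretches had mean values of 0.56 ± 0.12, 0.64 ± 0.23, 0.33 ± 0.19 and 0.31 ± 0.09 in that order (SD, n = 10 pools). All 4 means were above the upper quartile of ranked core regions, 0.29. The genes were taken in order of the highest value among their core regions, which favours this, so nothing is read from it.

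The second set shows copies. The leading regions of loci 1, 5 and 2 lie near Zscan4 genes on chromosome 7, and a stretch of 150 bases of the first is printed with its counterparts in the other two, in capitals where a base differs from the first. They lie at chr7:11448501-11448650 (plus strand), chr7:11564902-11565051 (plus strand) and chr7:11108706-11108855 (minus strand).
Locus 1, Zscan4f: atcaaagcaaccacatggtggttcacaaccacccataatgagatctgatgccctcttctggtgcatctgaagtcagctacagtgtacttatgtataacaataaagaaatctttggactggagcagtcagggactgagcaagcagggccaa
Locus 5, Zscan4-ps3: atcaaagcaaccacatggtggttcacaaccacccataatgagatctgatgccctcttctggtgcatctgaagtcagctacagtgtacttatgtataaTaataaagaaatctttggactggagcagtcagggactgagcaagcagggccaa
Locus 2, Zscan4-ps1: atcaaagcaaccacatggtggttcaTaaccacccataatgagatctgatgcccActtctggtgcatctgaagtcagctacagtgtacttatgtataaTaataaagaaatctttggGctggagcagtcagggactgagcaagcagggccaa

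The counterparts differ from locus 1 at 1 and 4 bases of 150, which is the length of a read in this study. Over 2002 aligned bases the leading regions of loci 1 and 5 were 98.2% identical, and over 2001 bases those of loci 1 and 2 were 95.8% identical (blastn). The leading regions of loci 3 and 16, both nearest to Gm5591 on chromosome 7, were 99.1% identical over 2807 bases. Of the 20 leading regions, 5 belonged to pairs of at least 95% identity. Reads of such copies are hard to place, so the values of a copy cannot be fully separated from those of its partner.

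The 10 libraries listed 34359 to 55670 autosomal islands, of which 9434 to 43778 had an FDR of at most 0.01 and were used. These covered 32.5 to 147 Mb and held 1.40 to 6.50 M ChIP reads and 0.731 to 4.23 M input reads. The median island had 1.56 to 1.93 ChIP reads per input read, a ratio that also depends on the depth of both libraries and is removed by the centring. Female replicate 2 stood apart, with 9434 islands against 29572 to 43778 in the others, and had an island in 24.0% of all regions. Another 6584 regions lacked an island in female replicate 2 alone, and without it 10934 of 34505 regions were core regions (31.7%). The sex labels matched the sex chromosomes: male pools had 566 to 960 islands on chromosome Y against 24 to 275 in female pools. H3K36me3 islands of the same pools lay over a median of 23.9% of the 23 neuron markers, 10% of the 20 oligodendrocyte markers, 10% of the 20 astrocyte and microglia markers and 6.25% of the 24 markers of other organs, beside 20.8% of all protein-coding genes. The neuron share is near that of all genes, so the tissue label could not be checked firmly in this way.

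Core regions covered 27.4 Mb, or 1.11% of the autosomes, with a median length of 5400 bp (interquartile range 4200 to 7000 bp). Protein-coding gene bodies held 15.7% of their length, beside 15.7% in regions that were not core and 40.3% of the autosomes. Exons held 1.06%, beside 0.271% in regions that were not core and 3.76% of the autosomes. Of the 4300 core regions, 767 touched a gene body (17.8%, beside 16.3% of regions that were not core) and 119 lay within 1 kb of a transcription start site (TSS; 2.77%, beside 0.695%). The median distance to the nearest TSS was 54.6 kb, beside 127 kb.

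They were packed into a small part of the genome. Of 2473 windows of 1 Mb, 90 held at least 10 core regions each, and these 90 Mb, in 49 clusters, held 2199 core regions (51.1%) and 95 of the 100 regions of highest value. Chromosome 7 had the most core regions, 811, which covered 3.65% of its length. Chromosomes 13, 17 and 4 followed with 2.01%, 1.91% and 1.63%, and chromosomes 11 and 14 had the least, 0.396% and 0.403%. The cluster with the most core regions (chr7:7000001-16000000) held 328 of them among 25 Vmn1r, 28 Vmn2r and 21 zinc-finger genes. A cluster on chromosome 4 (chr4:143000001-148000000) held 192 core regions and 18 zinc-finger genes. The densest, on chromosome 13 (chr13:65000001-67000000), was covered by core regions over 54.0% of its length and held 25 of the 100 regions of highest value. On chromosome 12, a cluster of 92 core regions (chr12:113000001-116000000) spanned the array of immunoglobulin heavy chain variable segments. Of the 194 segments annotated on that chromosome 33 had a core region, and these were 23 core regions, so most of the cluster lay between segments. Over the autosomes, 7.34% of immunoglobulin variable genes and 10.8% of their pseudogenes had one, beside 2.60% of protein-coding genes. The shares were 7.99% of unprocessed, 13.6% of transcribed unprocessed and 1.77% of processed pseudogenes, so they are not particular to immunoglobulin segments. Immunoglobulin variable segments are used in B cells.

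**Figure D1:**
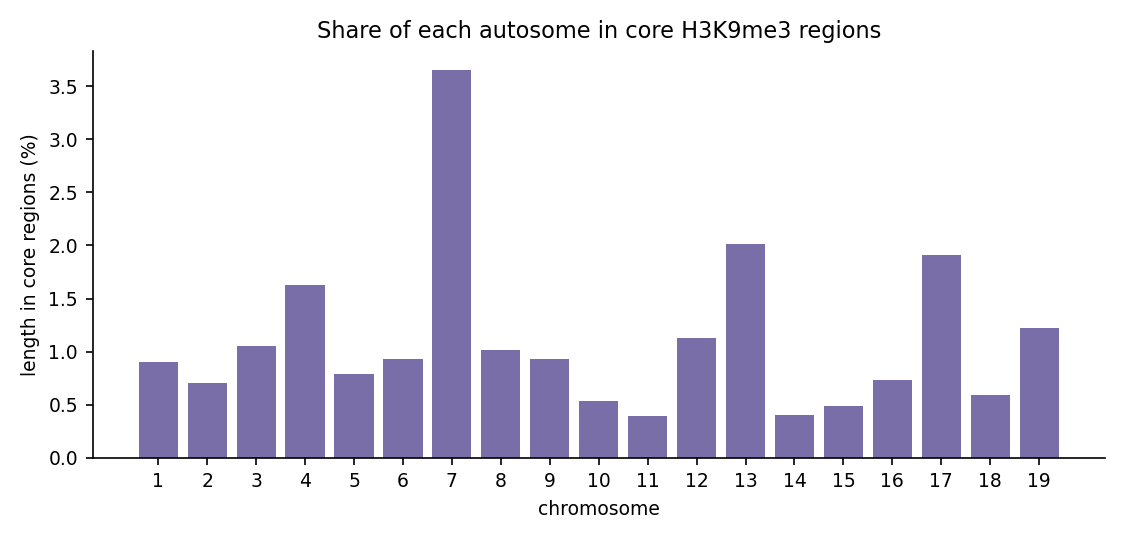
Share of the length of each autosome (x axis, chromosome number) that lay in core H3K9me3 regions (y axis, percent), one bar per chromosome. Chromosome 7 stands highest at 3.65%, followed by chromosome 13 at 2.01%, and chromosome 11 is lowest at 0.396%.

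Across the 4234 ranked core regions, the mean centred log2 ratio had a median of 0.09 and ran from −0.34 to 0.80. The value was above 0 in all 10 pools at 949 core regions (22.4%). Female replicate 2, whose 0 is set by its 9434 islands alone, had a median of −0.025 over the core regions, beside 0.080 to 0.15 in the other pools. Its effect on this count was not tested. The highest values were found where few reads lay: 79 of the 100 highest regions were among the 1064 core regions with the fewest input reads. The SD between pools fell with depth as well, from a median of 0.21 in those 1064 to 0.14 in the 1059 with the most. A high rank from few reads is therefore less certain than the same value from many, and both rankings are described.

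The 20 leading loci lay on chromosomes 7 and 12 (6 loci each), 13 (4 loci), 5 (2 loci), 4 and 6 (1 locus each), and joined 184 core regions. Their leading regions had means from 0.67 to 0.80, which is 1.59 to 1.74 times the ratio of the median island. All 20 were above 0 in all 10 pools, which their choice by the highest means favours, so nothing is read from it. Their SDs ran from 0.11 to 0.47, and locus 21 followed at 0.67, so the order among them is not resolved by the spread between pools. None of the 20 leading regions touched a protein-coding gene body, beside 17.8% of all core regions and 17.7% of the 423 of highest value. Of the 20, 9 overlapped an annotated pseudogene or long non-coding RNA. Of all core regions, 6.98% overlapped a long intergenic non-coding RNA. Unprocessed, processed and transcribed unprocessed pseudogenes lay over 3.37%, 3.33% and 1.44% of them. The share of these types together was not counted.

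Locus 1 (chr7:11448001-11450000) lay 50086 bp from the start of Zscan4f, a SCAN-domain zinc-finger gene known from early embryos and embryonic stem cells. Its centred log2 ratios were 0.68, 0.95, 0.40, 0.71 and 0.76 in male replicates 1 to 5 and 1.37, 0.76, 1.47, 0.80 and 0.06 in female replicates 1 to 5 (mean 0.80 ± 0.41). Every pool was above 0, and female replicate 5 was lowest, on 13 to 30 input reads per pool. It overlapped the processed pseudogene Gm7839.

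Locus 2 (chr7:11106401-11109600) lay 36710 bp from Zscan4-ps1 and overlapped the processed pseudogene Gm4157. The male pools stood at 1.30, 0.99, 0.87, 0.77 and 1.46, and the female pools at 0.60, 0.22, 0.67, 0.52 and 0.55 (mean 0.79 ± 0.38). All 5 male pools lay above all 5 female pools in this ratio, which carries no test here because it chose the locus. In ChIP reads alone the sexes differed by −0.25 ± 0.18 (log2, female minus male, SE, adjusted p = 0.980, edgeR quasi-likelihood test). Locus 5 (chr7:11564401-11567000), 42308 bp from Zscan4-ps3 and over the processed pseudogene Gm7848, had a mean of 0.79 ± 0.34. Together the 3 Zscan4 loci are copies of one another, as printed above, and 30.8%, 57.1% and 70.6% of 150-base tiles of loci 1, 2 and 5 were not placed uniquely in the reference (minimap2 mapping quality below 10).

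Loci 3 and 16, the near-identical pair on chromosome 7 at chr7:38567201-38571600 and chr7:38719601-38722800, overlapped the unprocessed pseudogenes Gm4454 and Gm21115. Their means were 0.79 ± 0.45 and 0.69 ± 0.30. Male replicate 4 reached 1.91 at locus 3 against 0.23 to 1.11 in the other pools, and male replicate 1 stood at 0.066 at locus 16 against 0.33 to 1.1.

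Locus 7 (chr4:146212401-146216000), 55577 bp from the zinc-finger gene Zfp600, had the least spread of the 20. Its values were 0.85, 0.72, 0.61, 0.85 and 0.79 in male pools and 0.74, 0.74, 0.59, 0.97 and 0.77 in female pools (mean 0.76 ± 0.11), on 39 to 66 input reads per pool. The sexes overlapped fully there. All of its 150-base tiles, 100%, were placed at more than one site or with low quality in the reference.

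Other leading loci were of unique sequence. At locus 6 (chr13:61651001-61653800), 80874 bp from Cts3, a placental cathepsin, 0% of tiles were ambiguous and the value was 0.79 ± 0.25, from 0.40 to 1.18. Locus 12 (chr5:145741601-145745800), 21465 bp from Cyp3a41a, a cytochrome P450 of the liver, had 3.57% ambiguous tiles and a value of 0.73 ± 0.14, from 0.45 to 0.93. Locus 20 (chr6:133732401-133735800), 117962 bp from Kap, a kidney androgen-regulated gene, had 0% and a value of 0.67 ± 0.37. A high ratio was thus seen both in repeated and in unique sequence.

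The remaining loci of chromosome 12 were locus 4 (0.79 ± 0.27) and locus 13 (0.71 ± 0.25), both nearest to Gm21863, locus 14 (0.71 ± 0.19, nearest to Gm10330), and locus 15 (0.70 ± 0.20), close to the centromeric end of the assembled chromosome (chr12:3009401-3019600) and 290369 bp from Rab10, a GTPase of vesicle transport. Locus 8 (0.74 ± 0.47) and locus 17 (0.68 ± 0.26) lay between Zfp386 and Adam6a, in the immunoglobulin heavy chain cluster. On chromosome 13, locus 9 (0.74 ± 0.20) was nearest to Gm10139, and loci 11 and 18 (0.74 ± 0.40 and 0.68 ± 0.26) to 2410141K09Rik. Locus 10 (0.74 ± 0.23) was nearest to the pheromone receptor gene Vmn1r71, and locus 19 (0.67 ± 0.33) ended 206 bp from the start of D5Ertd577e.

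**Figure D2:**
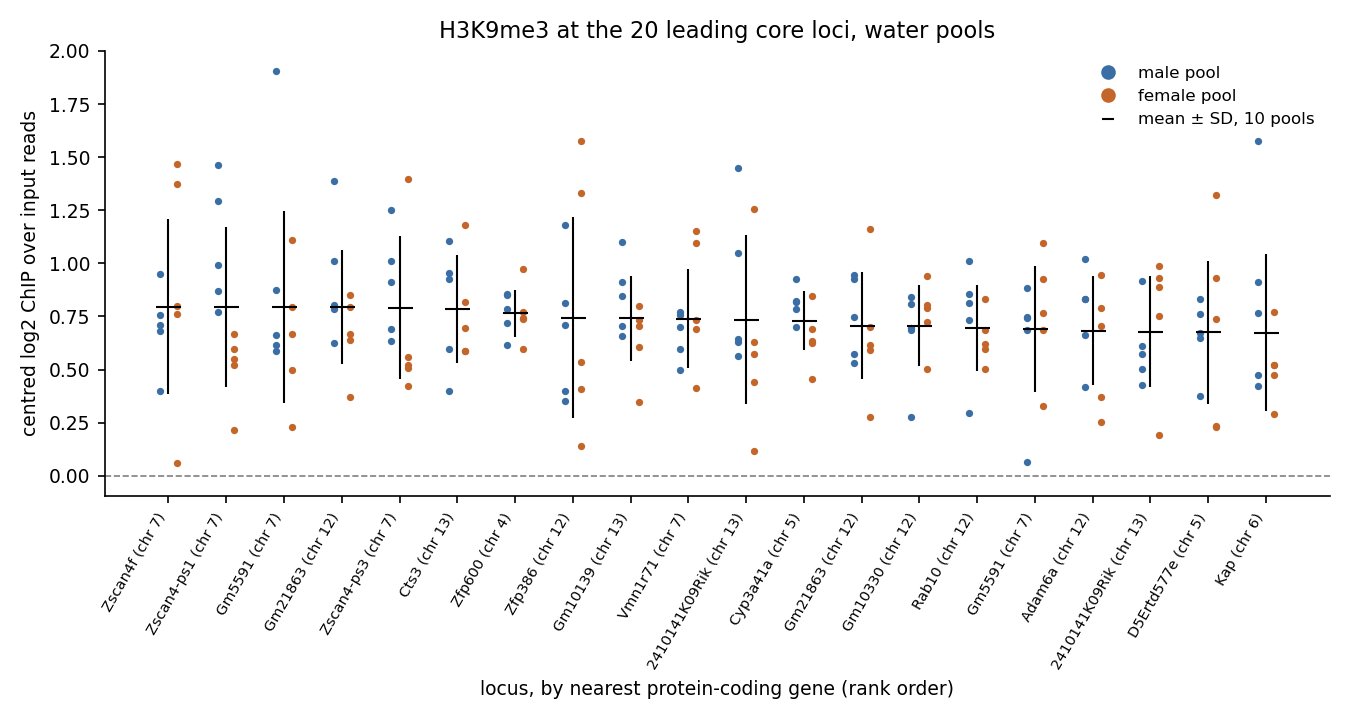
Centred log2 ratio of ChIP over input reads (y axis) at the leading region of each of the 20 leading loci (x axis, nearest protein-coding gene and chromosome, in rank order), with one point per male or female pool and the mean ± SD of 10 pools in black. All points lie above 0, and the Zfp600 locus has the smallest SD, 0.11.

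With at least 50 input reads required in each pool, 2 of the 20 loci stayed in the first 20, of which 9 then lay on chromosome 13, 5 on chromosome 4, and 3 each on chromosomes 7 and 12. First was locus 9 near Gm10139 on chromosome 13 (chr13:65606001-65611000), with 80.0 to 130.0 input reads per pool and a value of 0.74 ± 0.20. Its male pools stood at 0.91, 0.85, 0.71, 1.1 and 0.66, and its female pools at 0.73, 0.35, 0.70, 0.80 and 0.61. Second was locus 15 near Rab10 (0.70 ± 0.20), and then came a region near Gm10324 on chromosome 13 (0.67 ± 0.19) with 121 to 205 input reads. Among those that followed, Zfp988 (chr4:147327001-147340600, 234 to 326 input reads) had 0.56 ± 0.12 and Obox1 (chr7:15429801-15454200, 457 to 598 input reads) had 0.54 ± 0.12. Obox1 belongs to the oocyte-specific homeobox genes. The SDs of these 20 ran from 0.12 to 0.32.

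Sequence features that the ranking did not use were compared next. The linker motif (both strands) occurred in 2.35% of core regions and in 11.1% of the 423 of highest value, beside 0.473% of the 423 of lowest value, 0.362% of regions that were not core, and 1.74% of all 5400-bp tiles of the autosomes. Per 100 kb there were 15.6 motifs in the 423 highest and 0.525 in all tiles. Of the 46 core regions with at least 5 motifs, 18 lay on chromosome 13 and 18 on chromosome 4; 15 touched a listed C2H2 zinc-finger gene and 23 touched no protein-coding gene body. Their median value was 0.48, beside 0.10 for all core regions. Only 6 of the 100 highest regions held the motif at all, so most leading regions were not finger exons.

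Repeats showed another order. Soft-masked bases (interspersed repeats and low complexity, as marked in the reference) made up 78.9% of core regions, 92.9% of regions that were not core and 33.5% of all tiles. Within core regions their share was 44.3% in the 423 highest and 88.2% in the 423 lowest. The regions of highest value were thus poorer in masked repeats than other H3K9me3 regions. The ratio of observed to expected CpG was 0.16 in core regions and 0.19 in all tiles, and GC content was 39.5% and 41.9%. Tiles of 150 bases without a unique place made up 37.9% of core regions, 36.1% of the 100 highest, 39.0% of the 423 highest and 48.6% of the 423 lowest, beside 7.20% of a grid of tiles over the autosomes. The authors removed reads with several matches, which lowers ChIP and input reads alike where copies are near identical; its part in the ratio was not tested.

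Over genes, 540 of 20807 protein-coding genes (2.60%) had a core region over the body. The 20 genes of highest value included zinc-finger genes of chromosome 4, namely Zfp988 (0.66 ± 0.36), Zfp987 (0.64 ± 0.23), Zfp986 (0.63 ± 0.35), Zfp991 (0.54 ± 0.13), Zfp984 (0.52 ± 0.29) and Zfp992 (0.51 ± 0.08). These genes encode proteins with tandem C2H2 fingers. At Zfp992 the core regions covered 72.3% of the body, its leading region held 337 to 525 input reads per pool, and its values lay between 0.41 and 0.62 in every pool. At Zfp987 the leading region held 1844 bp of exon and its values lay between 0.41 and 1.18.

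Genes known from the liver, germ cells and the vomeronasal organ were also among the 20. The leading region of Cyp3a41a over its body had 0.63 ± 0.17 and that of Cyp3a41b, which lies beside it and is a close homologue, 0.53 ± 0.12. Obox1 had 14 core regions over 72.7% of its body and a highest value of 0.54 ± 0.12, from 0.34 to 0.73. Vmn2r62, a pheromone receptor gene, had 0.52 ± 0.31, with 9 of 10 pools above 0.

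Several genes of the 20 have only clone or gene-model names in the annotation used. 2410141K09Rik on chromosome 13 (0.66 ± 0.23) had core regions over 86.1% of its body, Gm5592 on chromosome 7 (0.66 ± 0.31) over 58.0%, and C130026I21Rik on chromosome 1 (0.62 ± 0.22) over 88.8% of 278 kb, in 19 core regions. Gm37013, Gm37388 and Gm42416 on chromosome 18, long gene models that span the protocadherin arrays, shared one region (0.59 ± 0.24) and count as 1 observation. Gm10139 (0.55 ± 0.11), Gm20449 (0.52 ± 0.22) and Gm9117 (0.52 ± 0.42) completed the group. Lonrf1 (0.65 ± 0.29), the one remaining gene, had a core region of only 200 bp inside its body, 0.598% of the body's length.

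Gene families were then read against the 2.60% of all protein-coding genes, as counts without a test. Type 2 vomeronasal receptors, pheromone receptors with a large extracellular domain, had a core region at 41 of 121 genes (33.9%), led by Vmn2r62, Vmn2r60 (0.51 ± 0.20) and Vmn2r58 (0.47 ± 0.40). Type 1 vomeronasal receptors had one at 22 of 208 (10.6%), led by Vmn1r172 (0.51 ± 0.27), Vmn1r174 (0.49 ± 0.27) and Vmn1r73 (0.48 ± 0.22). Olfactory receptors, the largest family with 1128 genes, had one at 16 (1.42%), led by Olfr77 (0.31 ± 0.26), Olfr855 (0.27 ± 0.14) and Olfr401 (0.24 ± 0.13). By body length, core regions lay over 9.59%, 6.18% and 0.894% of the type 2, type 1 and olfactory receptor genes, beside 0.461% of all genes, so olfactory receptors, with a median body of 5.99 kb beside 17.6 kb, were below all genes by count and above them by length. Without female replicate 2, olfactory receptors with a core region numbered 31, beside 1069 of all genes.

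C2H2 zinc-finger genes had a core region at 34 of 416 (8.17%), with a median highest value of 0.40 beside 0.05 for all genes with one. The germline list (Obox, Tdpoz, Speer and Zscan4 genes) had one at 10 of 30 (33.3%), over 56.8% of the summed body length, beside 0.461% of that of all genes. Obox3 (0.50 ± 0.28) and Obox7 (0.48 ± 0.25) followed Obox1. Obox1 and Obox3 are long gene models that overlap on chromosome 7, and the leading region of Obox3 lies in both. Each had 14 of the 36 core regions counted for the list, where a region in the overlap counts for both. The share by length thus rests largely on these overlapping models, which are not separate observations. Clustered protocadherins, cell-surface adhesion proteins of neurons, had one at 13 of 57 (22.8%). Of those, 12 were Pcdha gene models, Pcdha1 and Pcdha11 among them, that share 1 region of 0.04 ± 0.16 and count as 1 observation, and Pcdhb22 had a region of its own at 0.46 ± 0.21. Only 1 of the 57 had a core region where positions had to be covered in all 10 pools, and 0 where islands had to cover at least 50% of the region.

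Lists of neuronal genes were read next. Glutamate receptor genes had one at 6 of 25 (24.0%), with a median body of 319 kb beside 17.6 kb for all genes, and over 0.398% of the summed body length beside 0.461% for all genes. Gria2, an AMPA receptor subunit, had 0.09 ± 0.18, Grik1, a kainate receptor subunit, 0.05 ± 0.09, and Grid1 0.02 ± 0.06. Neurexin and contactin genes had one at 5 of 16 (31.3%), with a median body of 526 kb and over 0.244% of the body length. Of these, Cntnap3 had 0.46 ± 0.21 and was above 0 in all 10 pools, while Cntnap2 had 0.01 ± 0.13 and Cntnap5b −0.04 ± 0.16. Potassium channels had one at 5 of 91 (5.49%) and over 0.237% of the body length, with 0.06 ± 0.33 at Kcnh7, 0.01 ± 0.15 at Kcnk2 and −0.00072 ± 0.15 at Kcnk10. GABA and glycine receptors had one at 2 of 19 (10.5%) and over 0.397% of the body length, with 0.04 ± 0.16 at Gabrg3 and 0.01 ± 0.17 at Gabrb1. Without female replicate 2 the counts were 10 glutamate receptor, 8 neurexin and contactin and 11 potassium channel genes, while all protein-coding genes with one went from 540 to 1069. Centred at the median of the core regions in place of all islands used, the positive values of Gria2, Grik1, Grid1, Kcnh7, Kcnk2, Gabrg3, Gabrb1, Cntnap2 and the Pcdha region became negative. Leaving out a single pool also turned the sign of Kcnh7 (−0.036 without female replicate 2), Kcnk2, Kcnk10, Gabrb1 and Cntnap2.

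Of all protein-coding genes 2.60% had a core region, a share at which lists as short as the following may hold none by their length alone, and nothing is read from their zeros. No core region lay over any of the 23 neuron markers, 20 oligodendrocyte markers, 20 astrocyte and microglia markers, 24 markers of other organs, 39 Hox genes, 72 ribosomal protein genes, 64 defensins, 57 keratin-associated proteins, 14 ephrin receptors or 22 genes of the H3K9 methylation machinery. Without female replicate 2, 1 defensin and 1 ephrin receptor gained one, as did 1 ephrin receptor without male replicate 4 or 5 and 1 oligodendrocyte marker without male replicate 3. Among imprinted genes 1 of 42 had one (2.38%), Ube3a, a ubiquitin ligase, at −0.07 ± 0.15, and among major urinary protein genes 1 of 22 (4.55%), Mup18, at −0.04 ± 0.09. Without female replicate 2 these counts were 2 and 3, while all protein-coding genes with a core region went from 540 to 1069.

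**Figure D3:**
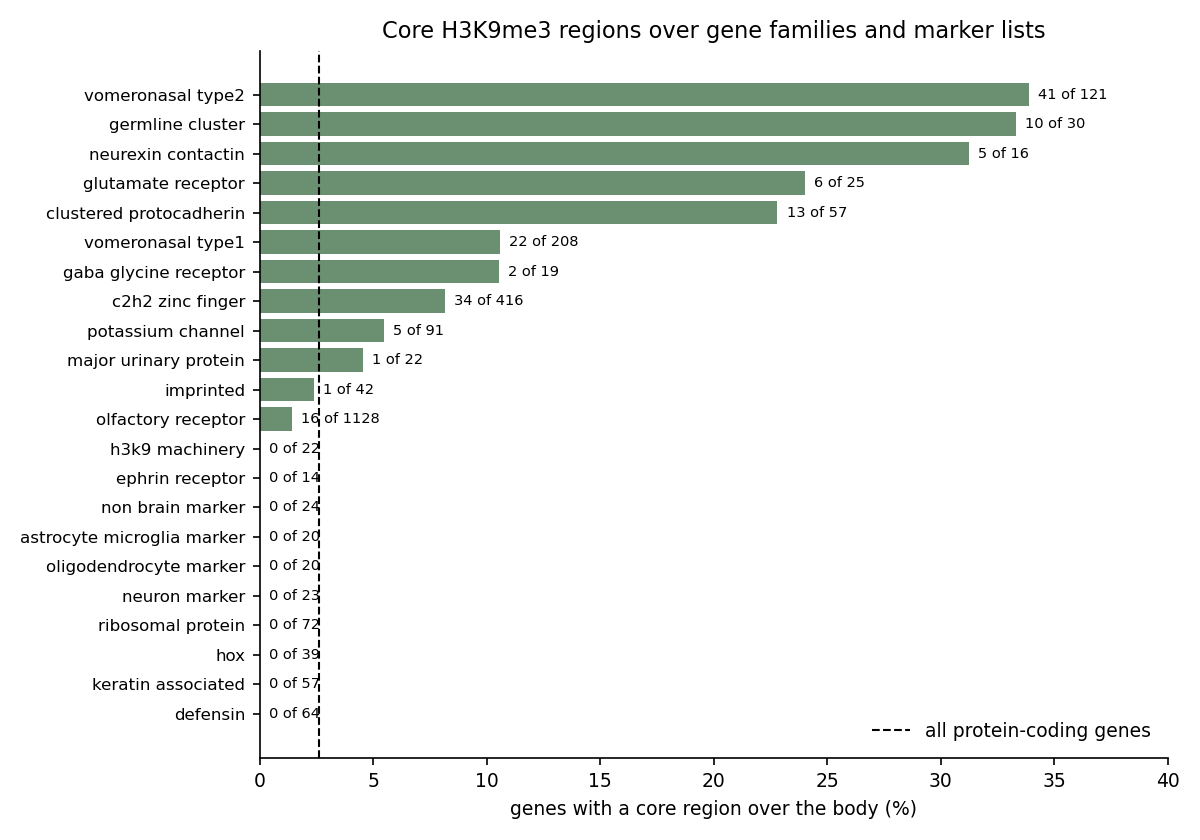
Percentage of the autosomal genes of each list (x axis) that had a core H3K9me3 region over the body, one bar per list with its counts, and all protein-coding genes as a dashed line at 2.60%. Type 2 vomeronasal receptors and the germline list stand at 33.9% and 33.3%, and 10 lists are at 0.

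The 5 longest core regions had values above and below 0. Of the 75 core regions of at least 20 kb, 21 were among the 423 of highest value and 5 among the 423 of lowest value. The longest core region, 123 kb (chr1:85224001-85347000), overlapped C130026I21Rik in part and had 0.38 ± 0.12, from 0.13 to 0.52, on 3454 to 4708 input reads per pool. The next, 107 kb touching Gm15319 (chr8:20317201-20424200), had −0.20 ± 0.07 and was below 0 in every pool. Gm21119 (89.6 kb, chromosome 8) had −0.15 ± 0.05, Gm31371 (79.6 kb, chromosome 8) 0.07 ± 0.09, and Gm5592 (79.6 kb, chromosome 7) 0.39 ± 0.10. In these 5 regions the SD between pools was at most 0.12.

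The position of both marks in the same pools was compared next. Of the length of H3K9me3 islands, 16.1 ± 0.30% lay in protein-coding gene bodies (SD, n = 10 pools), and of H3K36me3 islands 49.5 ± 11.4%. H3K36me3 was higher in 10 of 10 pools, by 33.4 percentage points on average (two-sided exact permutation test of paired differences, p = 0.00195, the smallest that 10 pairs allow). H3K9me3 shares lay between 15.7% and 16.6% and H3K36me3 shares between 31.3% and 68.4%, so the ranges did not overlap. In 3 of 10 pools (female replicates 1, 3 and 4) the H3K36me3 share was below the 40.3% of the autosomes that lies in gene bodies. The marks met in places: H3K36me3 islands overlapped 14.4 to 42.6% of the core regions, by pool, beside 4.62 to 23.6% of regions that were not core. The latter are shorter (median 2800 bp, beside 5400 bp), and the part of length in this overlap was not tested. Of the core regions 70 had one in all 10 pools and 854 in none, beside 33 and 12610 of the 30375 regions that were not core. In the 423 regions of highest value the overlap was 27.9 to 40.4%, and in the 423 of lowest value 6.38 to 38.1%.

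**Figure D4:**
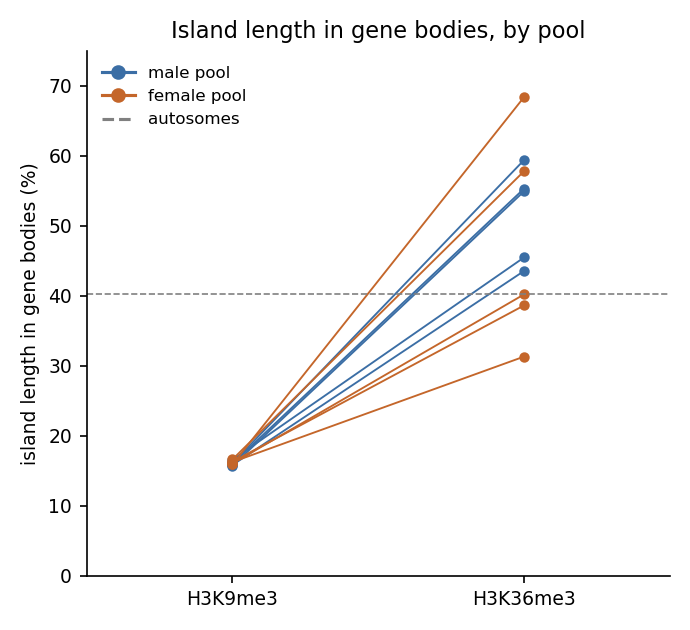
Percentage of the island length of each mark that lay in protein-coding gene bodies (y axis), with a line joining H3K9me3 and H3K36me3 of the same pool and the share of the autosomes, 40.3%, as a dashed line. H3K9me3 pools sit between 15.7% and 16.6%, below every H3K36me3 value.

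The ranking was then carried from one sex to the other. The 100 core regions of highest mean in male pools had a mean of 0.70 there and of 0.53 in female pools, and 80 of them were among the 423 highest of female pools. All 100 were above the female median. In the reverse direction the means were 0.65 and 0.59, with 80 again among the 423 highest, and 39 regions were in the first 100 of both sexes. Core regions needed an island in every pool of both sexes, so the pools read had also helped to choose the members. These counts are a description and carry no test. Between single pools, Spearman's rho over the 4234 regions ran from 0.36 to 0.68 (45 pairs, across regions that share island calls and each pool's input, with no test), and female replicate 2 had the lowest median, 0.45.

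**Figure D5:**
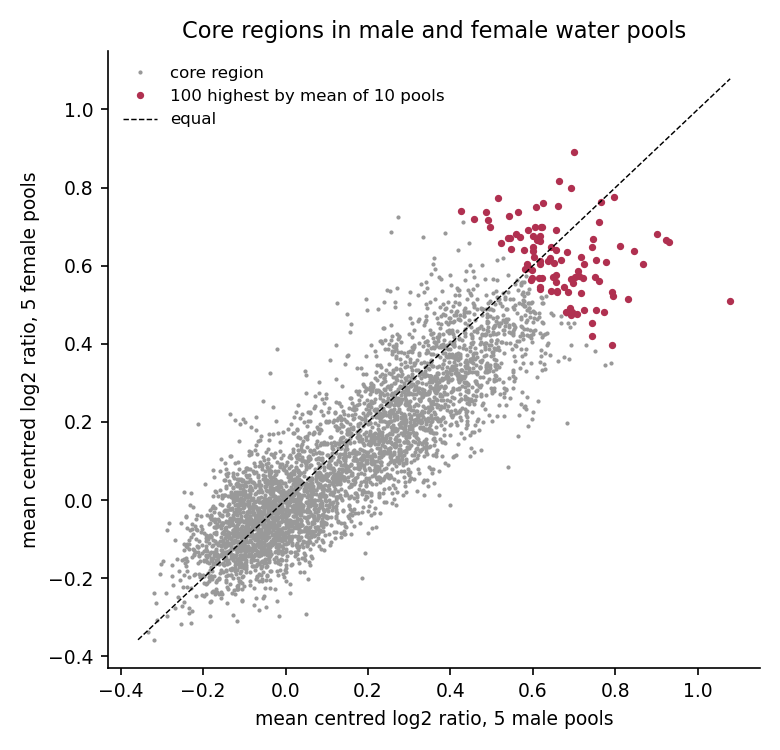
Mean centred log2 ratio in 5 male pools (x axis) and 5 female pools (y axis) for each of 4234 core regions, with the 100 highest by the mean of all 10 pools in red and the line of equal values dashed. The red points lie in the upper right corner, as their choice by the mean of both sexes fixes.

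No difference between the sexes passed the adjusted threshold. Of 4300 core regions tested in ChIP reads, 141 (3.28%) had an unadjusted p of at most 0.05, 76 higher in female pools (1.77%) and 65 higher in male pools (1.51%), and 0 (0.00%) had an adjusted p of at most 0.05 (edgeR quasi-likelihood test, Benjamini-Hochberg, smallest adjusted p = 0.980). DESeq2 gave 164 unadjusted and 0 adjusted, and limma on the ratio to input, centred in each pool at the median of its core regions, 188 and 0. The differences lay between −0.73 and 0.73 on the log2 scale, 98.7% of them within 0.5, and the median SE was 0.15. In simulated counts of the same 4300 regions, 50 regions each were changed 1.25, 1.5, 2 and 3-fold in one run. The test found 82.0% of 2-fold and 44.0% of 1.5-fold differences, with 7 false calls. With many regions changed at once the adjusted threshold is easier to pass, so a difference in few regions could be missed more often. A smaller difference between the sexes could also go undetected with 5 pools each.

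The 5 regions of smallest p are given as values in reads per M core-region reads (CPM). The smallest p (0.00194, adjusted 0.980, edgeR) was that of a region of 10600 bp near Gm28360 (chr1:117854801-117865400). Male pools stood at 376, 365, 338, 331 and 330 CPM and female pools at 261, 285, 227, 269 and 308 CPM (log2 female minus male −0.37 ± 0.09, SE), without overlap. Near Atad2b, which encodes a bromodomain ATPase (chr12:5053001-5056400), male pools had 48.5 to 94.2 CPM and female pools 91.7 to 125 CPM (0.73 ± 0.20). Near Gm5591 (chr7:38593601-38599000) the difference was −0.54 ± 0.15, near Sval2 (chr6:41870801-41878800) −0.40 ± 0.12, and at Olfr855 (chr9:19585601-19592800) −0.68 ± 0.20. The ratio to input, centred in each pool at the median of its core regions, gave smaller differences at all 5. They were −0.19 at Gm28360, 0.31 at Atad2b, −0.16 at Sval2, 0.0021 at Gm5591 and 0.10 at Olfr855. Those at Gm5591 and Olfr855 were opposite in sign to the ChIP reads.

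None of the 4 levels of whole libraries passed the test between the sexes. Autosomal islands numbered 36071 ± 4742 in male and 30018 ± 12929 in female pools (SD, n = 5 each), and covered 130 ± 13.3 and 101 ± 42.7 Mb. ChIP reads per kb of island were 42.7 ± 3.29 and 41.3 ± 3.52, and the median ratio was 1.71 ± 0.12 and 1.75 ± 0.14. The adjusted p was 0.698 for all 4 levels (two-sided exact permutation tests, unadjusted p from 0.183 to 0.698). Female replicate 2 carried most of the gap in islands, which fell from −6053 to −907 (female minus male) without it. The 20 leading regions, none of which had an unadjusted p of at most 0.05 in the edgeR test, ranged from −0.45 to 0.19 on the log2 scale in ChIP reads. In the centred ratio, by which the loci were ranked, locus 2 near Zscan4-ps1 had a mean of 1.08 in male and 0.51 in female pools. With each pool centred at the median of its core regions instead, the difference was −0.53 (log2, female minus male). No test is read from this ratio at the leading loci, since it chose them.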

How the data were processed

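ChIP-seq of H3K9me3 and H3K36me3 was made from the same 10 water pools, with DNA of 8 precipitations combined per library and reads of 150 bases, single-end. The authors trimmed reads with CutAdapt, aligned them to GRCm38 (mm10) with Bowtie2 2.4.1 and filtered out reads in blacklisted sites or with several matches. SICER islands were then made per library, with the pool's input as control, from windows of 200 bp and gaps of 400 bp (H3K9me3) or 600 bp (H3K36me3). The deposited counts per island are whole ChIP and input reads, not normalized. The deposited q-value (p-value adjusted per list) of each island was used at a limit of 0.01. One input library served both marks, since 100% of islands with identical boundaries had equal input reads. The authors' fold column was not used. Only reads inside islands are known, so library depth is not, and no sample was dropped or imputed. SDs measure the spread between pools. No pair of the 45 agreed within sampling noise (lowest chi-square per degree of freedom 3.32).

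Island reads were apportioned to regions by the overlapped share of each island. Core-region ChIP reads (904619 to 1313443 per pool) were rounded, scaled by TMM factors and tested with edgeR 4.0.16 (sex as the only term), with DESeq2 1.42.0 and limma 3.58.1 as alternatives, in R 4.3.3; the test was tried on simulated data. Python 3.11.15, SciPy 1.17.1, minimap2 2.31 and blastn 2.17.0 did the rest. Genes are those of GENCODE vM21. Named were the first 20 loci (regions within 100 kb joined), the 20 protein-coding genes of highest value, 3 members per gene list, the 5 regions of smallest p by sex and the 5 longest regions; others were chosen after their values were seen. Members, gene lists and the search for a linker motif were chosen with earlier results of these data known. Alternatives were other FDR limits, region definitions, pseudocounts, centrings, input minimums and tools, and leaving out each pool.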

Additional observations from a re-analysis of the deposited data

Results flagged for a closer look

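In 164 groups of 5 pools of 1 sex (named regions, library levels and gene-body shares), 8 held a pool whose gap to the nearest other pool exceeded Dixon's 95% critical value, and chance gives about 1 in 20. All values are centred log2 ratios of a named region. Among male pools, replicate 4 stood at 1.91 at locus 3 near Gm5591 (others 0.59 to 0.87), replicate 1 at 0.28 at locus 14 near Gm10330 (others 0.68 to 0.84), at 0.066 at locus 16 near Gm5591 (others 0.69 to 0.88) and at 0.24 at Zfp984 (others 0.66 to 0.83), and replicate 2 at −0.13 at Mup18 (others −0.04 to −0.01). Among female pools, replicate 4 stood at 1.40 at locus 5 near Zscan4-ps3 (others 0.42 to 0.56), replicate 1 at 1.50 at Gm5592 (others 0.39 to 0.55), and replicate 2 at −0.026 at Olfr401 (others 0.18 to 0.26).

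The sex chromosomes stood outside the comparisons above but held islands of the same FDR. Female pools had a median of 8182 islands on chromosome X (3346 to 11026) and male pools 2414 (2100 to 2974). Per 1000 autosomal islands, female pools had 209 more than male pools, higher in 5 of 5 (two-sided exact permutation test, p = 0.00794, the smallest possible). Females carry 2 X chromosomes and males 1. Listed X islands held 587237 to 795452 input reads in female pools and 186350 to 235087 in male pools. Copy number and the amount of the mark cannot be told apart here. Chromosome Y had a median of 755 islands in male pools (566 to 960), and 144 in female pools (24 to 275), which carry no Y chromosome.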

How the results depend on the processing

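The number of core regions (4300) rested on the FDR limit and on female replicate 2. It was 1109 at an FDR of 1e-05, 21828 with all listed islands and 2655 where islands had to cover at least 50% of a region, and ran from 4344 to 10934 with each pool left out, the highest without female replicate 2. Protein-coding genes with a core region (540) numbered 151, 1934 and 350 under the same settings and 536 to 1069 with each pool left out. At an FDR of 1e-05, 22 zinc-finger, 13 Vmn2r, 9 Vmn1r, 8 germline and 5 olfactory receptor genes had one, and 0 glutamate receptor, potassium channel, GABA and glycine receptor, neurexin and contactin or protocadherin genes. The mean of the 20 leading regions (0.74) was 0.61 with a pseudocount of 10, 0.56 at an FDR of 1e-05 (16 regions with a value), 0.86 with all listed islands and 0.60 for the loci ranked first with at least 50 input reads, and 0.71 to 0.75 with each pool left out. Of 1036 values of 71 named regions under alternatives, 1000 stayed within 1 SD and 30 changed sign, all of regions within 0.09 of 0.

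No region passed the adjusted threshold between the sexes under any alternative run. Unadjusted calls (141) were 29 at an FDR of 1e-05, 906 with all listed islands and 99 to 381 with each pool left out, the highest without female replicate 2, where 10934 regions were tested. Pools of the same replicate number in both sexes share only the number: deviations of same-numbered pools correlated by −0.07 to 0.10, 1 of 5 male pools correlated best with its own number, and a replicate block gave 122 unadjusted calls. The gene-body share differed by 31.2 to 35.4 percentage points with each pool left out (exact p = 0.00391, the smallest that 9 pairs allow), and unpaired by the same 33.4 (p = 1.08e-05). Of the 100 regions of highest male mean, those in the highest 10% of female means, taken over the core regions of each setting, numbered 75 to 97 with each pool left out (97 without female replicate 2, with 10934 core regions) and 58 at an FDR of 1e-05, alternatives chosen after seeing the data. Some of the leading loci rest on as few as 11 input reads in a pool, so depth limits their values.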
